A study of Mus musculus with 8 samples.

Results

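The genes described here encode proteins that carry lipids between membranes at contact sites, where 2 organelles are held close together without fusing. Of the 56805 gene symbols in the count table, 10 were members. They were chosen by symbol: the 4 mouse Vps13 genes (Vps13a, Vps13b, Vps13c and Vps13d), the oxysterol-binding protein genes Osbp and Osbpl8, the Aster genes Gramd1a and Gramd1b, the sterol carrier gene Stard3 and the extended synaptotagmin gene Esyt1. The group was selected on the sgElovl1 contrast, in which the fold change of Vps13c was at percentile 7.51 of all tested genes, counted from the lowest. Values of that contrast are therefore given for the members as a description, and where a member's place beside the threshold is stated, nothing is read from it.

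The cells were CD8+ OT-I T cells, whose T cell receptor recognises an ovalbumin peptide, from OT-I:Rosa26-Cas9 mice that express the Cas9 nuclease. They were activated in culture and transduced with a lentivirus that carried a non-targeting guide (sgNT) or 1 guide to Elovl1 (sgElovl1), and transduced cells were sorted by CD90.1 at 3 days after transduction. This is what the sample labels, the series title and the study's methods give; the design text of the series describes cells sorted from tumours instead, and was not followed. Elovl1 lengthens very-long-chain fatty acids that enter ceramides and other sphingolipids. Both groups shared the OT-I receptor, Cas9, the activation, the viral vector and the sort, and differed in the guide. The labels list 8 samples, 2 replicate mice for each guide in each of 2 experiments, and the table holds the sum of both mice, so there were 4 columns and the spread between mice could not be seen.

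VPS13 proteins are long rods with a hydrophobic groove that is thought to let phospholipids flow in bulk from membrane to membrane. VPS13A joins the endoplasmic reticulum to mitochondria and the plasma membrane, VPS13B acts at the Golgi, VPS13C joins the endoplasmic reticulum to late endosomes and lysosomes, and VPS13D acts at mitochondria. The other members are smaller shuttles and tethers: OSBP exchanges cholesterol for phosphatidylinositol 4-phosphate, ORP8 (Osbpl8) exchanges phosphatidylserine for it, GRAMD1 proteins take up cholesterol from the plasma membrane, STARD3 binds sterol on late endosomes, and ESYT1 holds the endoplasmic reticulum to the plasma membrane in response to calcium.

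Vps13a and Vps13c are the closest paralogs of the Vps13 genes, so the start of their coding sequences is shown to let the reader see how far reads from these 2 genes can be told apart. The stretches are bases 1 to 180 from the start codon, 5′ to 3′, from GENCODE vM21 (GRCm38). Capitals mark the bases that differ.

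Vps13a: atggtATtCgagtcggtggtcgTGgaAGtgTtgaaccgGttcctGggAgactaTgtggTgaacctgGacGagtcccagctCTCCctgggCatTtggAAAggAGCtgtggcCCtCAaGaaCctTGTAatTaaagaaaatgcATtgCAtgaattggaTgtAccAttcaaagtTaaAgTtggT

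Vps13c: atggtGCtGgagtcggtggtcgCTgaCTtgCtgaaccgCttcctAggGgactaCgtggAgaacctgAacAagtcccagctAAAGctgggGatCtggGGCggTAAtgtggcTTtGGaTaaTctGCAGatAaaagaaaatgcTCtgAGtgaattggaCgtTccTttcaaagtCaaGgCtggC

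In this stretch 49 bases differed and 72.8% were identical. Over the whole coding sequences, the longest run shared by Vps13a and Vps13c was 20 bases, and for the other Vps13 pairs it was 13 to 17 bases, all far shorter than a sequencing read. For each member, the transcript with the longest coding sequence was compared with the transcripts of other genes. In 8 of the 10 members, Vps13a, Vps13b and Vps13c included, no stretch of 50 bases was shared with another gene. In Vps13d 0.0506% of such stretches were shared, and in Osbpl8 1.17%. Introns, over which reads were also counted, were not compared. The Vps13 genes encode the longest proteins of the group, with 3166 codons in Vps13a, 3993 in Vps13b, 3748 in Vps13c and 4390 in Vps13d, against 446 in Stard3 to 1092 in Esyt1 among the others. In the same annotation Vps13a and Osbp lie on chromosome 19, Vps13b on 15, Vps13c and Gramd1b on 9, Vps13d on 4, Osbpl8 and Esyt1 on 10, Gramd1a on 7 and Stard3 on 11. Reads were counted over whole genes with introns, and the span of Vps13b, at 560 kilobases the longest, overlapped 7 other genes on the same strand over 2.41% of its length, none of it in exons of Vps13b.

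The columns held 49068952 to 63623476 counts, and all 10 members passed the filter on low counts with between 675 counts (Vps13c, sgElovl1, experiment 1) and 58132 counts (Gramd1a, sgElovl1, experiment 2). The 6 CD8 T cell markers were all above 1 CPM (counts scaled to a library of 1000000) in every column and summed to 3540 to 4220 CPM. Markers of B, NK and erythroid cells summed to at most 1.79 CPM, and Cd4 had at most 6 counts and Foxp3 271 to 585. Macrophage, monocyte and dendritic cell markers summed to 4.04 to 4.12 CPM in experiment 1 and 14.5 to 17.9 CPM in experiment 2, mostly from Itgax, while Lyz2 had at most 1 count. Elovl1 was at 110 CPM in sgNT and 61.3 CPM in sgElovl1 in experiment 1, and at 93.5 and 55.8 CPM in experiment 2. It was thus lower with its own guide in both experiments and 57.5% of the sgNT level over both (adjusted p = 3.8e-28 in the edgeR quasi-likelihood test, 2 columns a guide).

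Vps13c had the fewest counts of the 10 members and was the one whose level differed most between the guides. It was at 15.7 CPM in sgNT and 12.8 CPM in sgElovl1 in experiment 1, and at 18.6 CPM in sgNT and 13.3 CPM in sgElovl1 in experiment 2. Both sgElovl1 columns lay below both sgNT columns. The log2 fold change over both experiments was -0.39 (SE 0.11), which left 76.5% of the sgNT level, with -0.29 in experiment 1 and -0.49 in experiment 2. Vps13c was the only 1 of the 10 members whose columns did not overlap between guides (12.6% of all 16006 tested genes did not overlap) and the only 1 past the threshold of an adjusted p of 0.05 in edgeR (1.2% of tested genes were past it). As the group was chosen with this contrast known, nothing is read from those counts. In edgeR it was not past the threshold without the filter, with genes of at least 5 CPM or without the experiment term, it had no adjusted p in DESeq2, and with upper-quartile factors Gramd1a passed as well. With guide as the only term, its log2 fold change was -0.51 and -0.24 when the sgNT column of experiment 1 or 2 was dropped and -0.36 and -0.40 when the sgElovl1 column was, in fits that called only 0 to 6 genes in all. In these bulk samples, fewer cells that express a gene and less RNA per cell cannot be told apart.

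The other Vps13 genes had smaller fold changes between the guides than Vps13c, and their difference from Vps13c was not tested. Vps13a was at 47.6 CPM in sgNT and 45.2 CPM in sgElovl1 in experiment 1, and at 52.7 and 49.8 CPM in experiment 2. Vps13b was at 34.0 and 31.1 CPM in experiment 1, and at 37.6 and 34.1 CPM in experiment 2. Vps13d was at 36.8 and 33.9 CPM in experiment 1, and at 61.2 and 58.1 CPM in experiment 2. For each of the 3 genes the sgElovl1 column was the lower of its experiment, but the columns of the guides overlapped across experiments. Their log2 fold changes were -0.08 (SE 0.07) for Vps13a, -0.13 (SE 0.08) for Vps13b and -0.10 (SE 0.07) for Vps13d, with nearly the same value in both experiments.

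**Figure D1:**
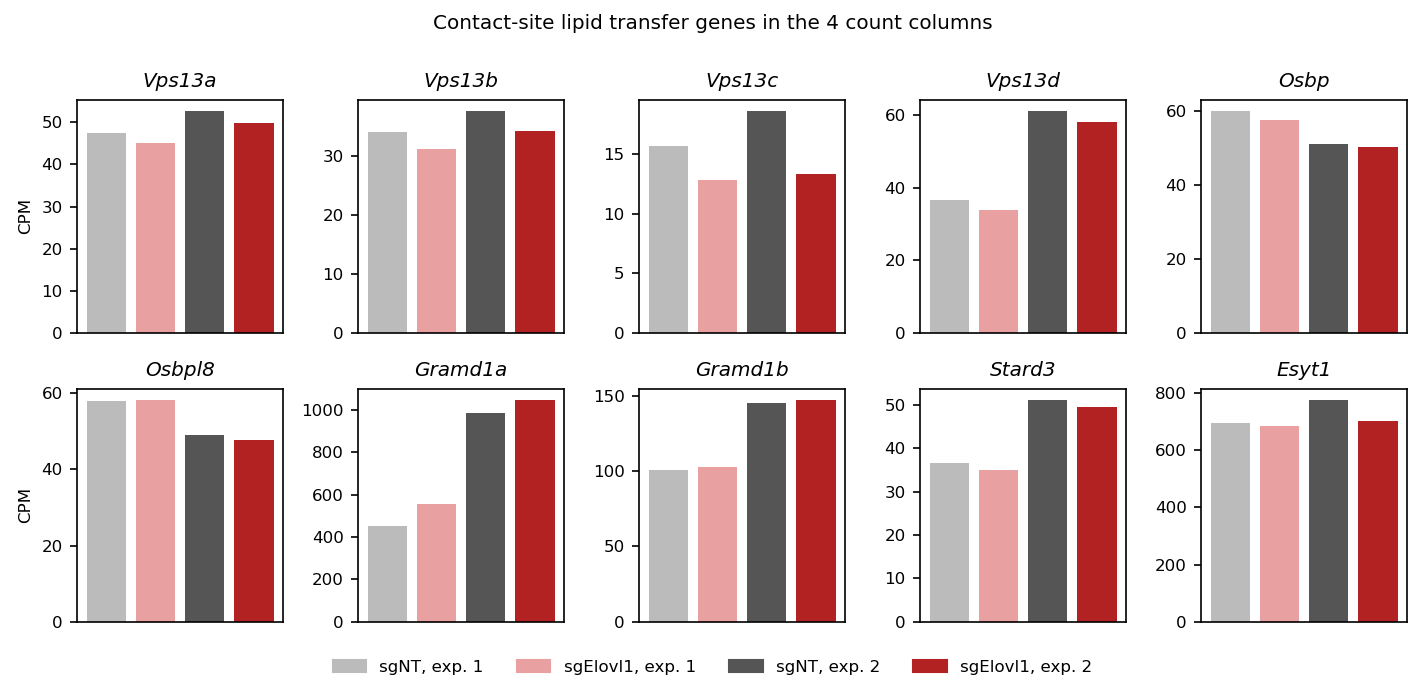
CPM of each of the 10 genes in the 4 count columns, as bars that start at 0, with grey for sgNT, red for sgElovl1, pale shades for experiment 1 and dark shades for experiment 2, and a separate axis for each gene. Vps13c was lower in both sgElovl1 columns (12.8 and 13.3 CPM) than in both sgNT columns (15.7 and 18.6 CPM), while Gramd1a, Gramd1b, Vps13d and Stard3 differed mainly between the experiments.

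The 2 oxysterol-binding genes hardly differed between the guides. Osbp was at 60.1 CPM in sgNT and 57.6 CPM in sgElovl1 in experiment 1, and at 51.2 and 50.2 CPM in experiment 2. Osbpl8 was at 57.9 and 58.3 CPM in experiment 1, and at 49.1 and 47.7 CPM in experiment 2. Their log2 fold changes were -0.04 (SE 0.07) and -0.01 (SE 0.07), and Osbpl8 was the only member with fold changes of opposite sign in the experiments.

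Gramd1a was the member with the highest fold change. It was at 451 CPM in sgNT and 558 CPM in sgElovl1 in experiment 1, and at 986 and 1049 CPM in experiment 2. Its log2 fold change was 0.20 (SE 0.07), with 0.31 in experiment 1 and 0.09 in experiment 2. The columns of the guides overlapped, because sgNT of experiment 2 was higher than sgElovl1 of experiment 1. Gramd1b, its paralog, was at 100 CPM in sgNT and 103 CPM in sgElovl1 in experiment 1 and at 145 and 147 CPM in experiment 2, a log2 fold change of 0.03 (SE 0.06).

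Stard3 was at 36.6 CPM in sgNT and 35.1 CPM in sgElovl1 in experiment 1, and at 51.2 and 49.7 CPM in experiment 2, a log2 fold change of -0.05 (SE 0.07). Esyt1 was at 697 and 687 CPM in experiment 1, and at 777 and 702 CPM in experiment 2, a log2 fold change of -0.08 (SE 0.07). The Esyt1 difference came mostly from experiment 2, at -0.15 against -0.02 in experiment 1. Over all 10 members, 7 were lower with sgElovl1 in both experiments and 2, Gramd1a and Gramd1b, were higher in both. Of all 16006 tested genes, 4828 were lower in both experiments. With the shift of fold changes along the difference between the experiments removed, Gramd1a was at 0.11, Gramd1b at -0.02, Osbpl8 at 0.01, Vps13d at -0.16 and Stard3 at -0.10. The median log2 fold change of the 10 members was -0.06, beside -0.01 over all tested genes. For the 4 Vps13 genes the median was -0.12. As the group was chosen with this contrast known, nothing is read from the direction counts or these medians. The difference of a fold change between the experiments could not be tested for any member, because each guide had 1 column in each experiment.

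**Figure D2:**
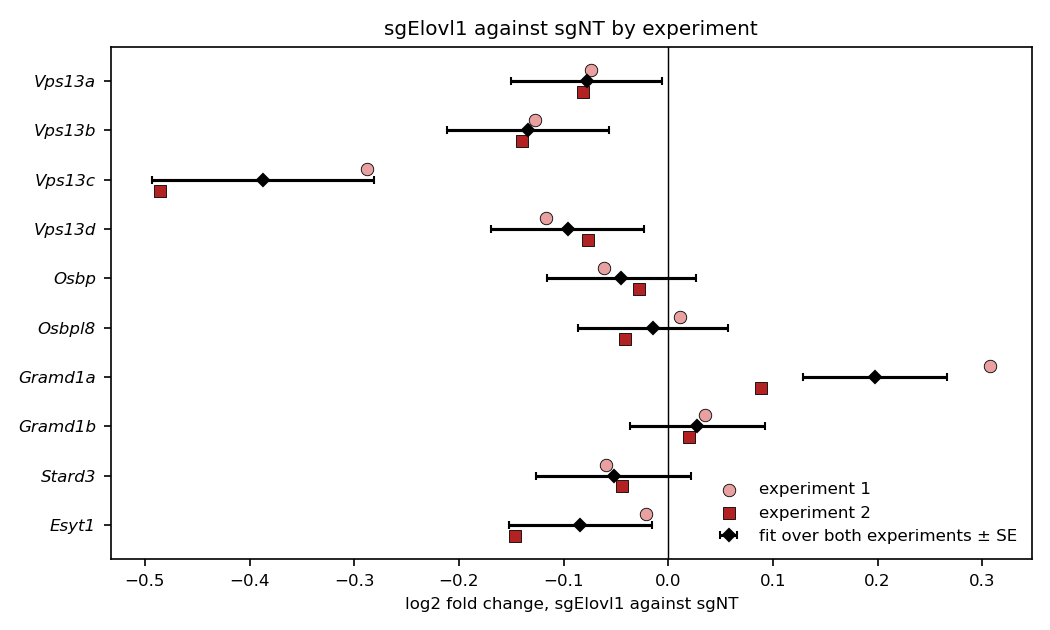
Log2 fold change of sgElovl1 against sgNT for the 10 genes, with circles for experiment 1, squares for experiment 2 and diamonds with bars for the fit over both experiments and its SE. Vps13c lies lowest at -0.29 and -0.49, and Gramd1a lies on the other side at 0.31 and 0.09.

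The longest transcript of each of the 4 Vps13 genes has 10.8 kilobases or more. Their fold changes were therefore set beside those of genes of like length. The 269 tested genes of at least 10 kilobases had a median log2 fold change of -0.04, with quartiles of -0.14 and 0.09. Vps13a, Vps13b and Vps13d lay between those quartiles and Vps13c lay below the lower. With the trend of the fold change on transcript length removed, the log2 fold change of Vps13c was -0.35 and it was no longer past the threshold.

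**Figure D3:**
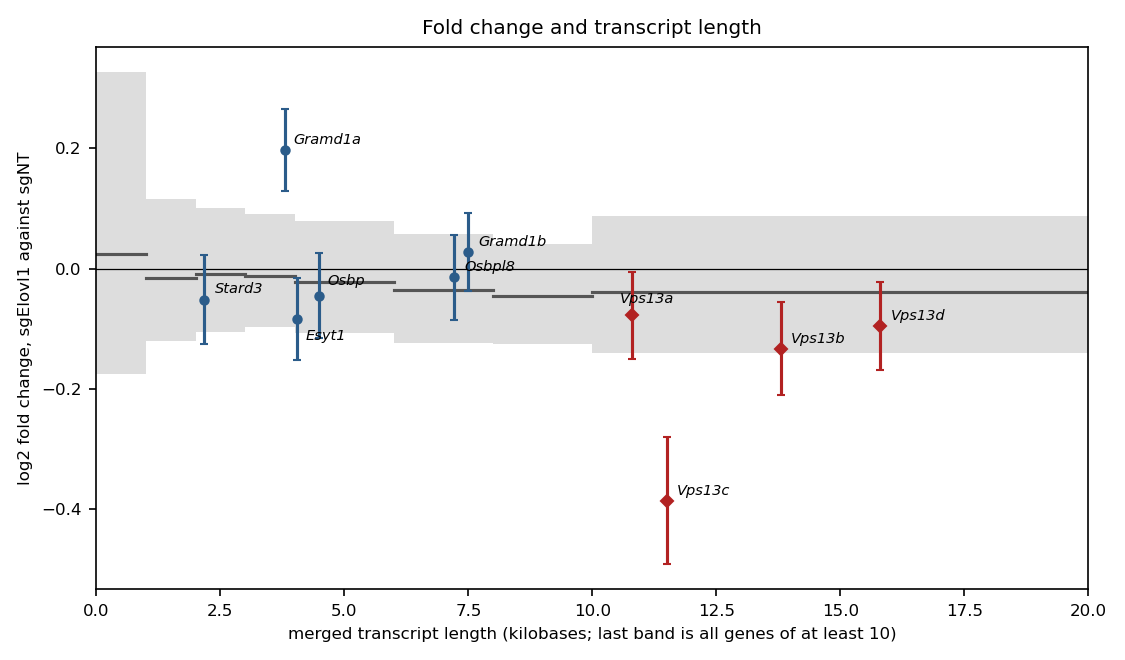
Log2 fold change of sgElovl1 against sgNT plotted against the length of the longest transcript in kilobases (called merged on the axis). The 10 genes are points with SE bars (red diamonds for Vps13 genes, blue circles for the others). Over all tested genes with a length, the grey line is the median and the grey band the quartiles of each length class. Vps13a, Vps13b and Vps13d lie within the band of genes of at least 10 kilobases, whose quartiles are -0.14 and 0.09, and Vps13c lies below it at -0.39.

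The genes whose pattern over the 4 columns was most like that of Vps13c were Dnajc16, Rbm41, Snrk, Scaper and Vgll4, in that order. Likeness was the Euclidean distance between log2 CPM profiles centred on their means, and 9755 genes of at least 5 CPM were compared. The distances were 0.0673 for Dnajc16 to 0.138 for Vgll4. As their choice implies, all 5 were lower with sgElovl1, with log2 fold changes of -0.35 (Dnajc16), -0.37 (Rbm41), -0.30 (Snrk), -0.26 (Scaper) and -0.27 (Vgll4), and none of the 5 was past the threshold in edgeR. No member was among them. Among the members, the closest profiles were those of Vps13a and Vps13b, at a distance of 0.0559, followed by Osbp and Osbpl8 at 0.0719.

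The difference between the experiments had no part in choosing the members and was tested in the same edgeR fit, with guide as a term. The 2 experiments differed widely, with 26.4% of tested genes higher and 29.2% lower in experiment 2, and the labels do not say what differed between them. Of the 10 members, 4 were higher and 2 lower in experiment 2 at an adjusted p below 0.05. The columns of the experiments did not overlap for 9 members, all but Vps13c, beside 75.8% of all tested genes. Summed markers of macrophages, monocytes and dendritic cells also differed between the experiments (at most 4.12 CPM in experiment 1 and at least 14.5 CPM in experiment 2). This came mostly from Itgax (2.95 CPM at most, then 12.7 CPM at least). Csf1r was higher too (0.69 and 0.49 CPM, then 1.08 and 1.01 CPM), and Adgre1 went from 0 counts to 1 and 9. Xcr1 overlapped between the experiments, Lyz2 had at most 1 count, and Flt3, at only 1 to 6 counts, was not higher in experiment 2. Those of CD4 T cells differed too (4.31 to 5.57 against 8.67 to 10.6 CPM), nearly all Foxp3. Cd4 itself had 2 and 6 counts in experiment 1 and 0 in both columns of experiment 2. Whether these cell types differed between the experiments was not tested, nor was their part in the differences of the members.

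Gramd1a had the largest difference between the experiments. Its 2 columns were at 451 and 558 CPM in experiment 1 and at 986 and 1049 CPM in experiment 2, a log2 fold change of 1.02 (SE 0.07, adjusted p = 5.54e-47 in edgeR). Gramd1b was also higher, at 0.53 (SE 0.06, adjusted p = 2.97e-15 in edgeR), and Stard3, at 0.49 (SE 0.07, adjusted p = 1.29e-10 in edgeR). In each of the 3 genes both columns of experiment 2 lay above both columns of experiment 1.

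Among the Vps13 genes, Vps13d alone passed the threshold between the experiments. It was at 36.8 and 33.9 CPM in experiment 1 and at 61.2 and 58.1 CPM in experiment 2, a log2 fold change of 0.76 (SE 0.07, adjusted p = 7.04e-24 in edgeR). Vps13a, at 0.14 (SE 0.07), Vps13b, at 0.14 (SE 0.08), and Vps13c, at 0.15 (SE 0.11), did not pass (adjusted p = 0.0786, 0.122 and 0.217 in edgeR). The median over the 269 tested genes of at least 10 kilobases was 0.13. Vps13a and Vps13b passed with upper-quartile factors, at 0.23 and 0.22, and with genes of at least 5 CPM, at 0.21 and 0.20. Vps13c passed with upper-quartile factors too, at 0.24 (adjusted p = 0.0462 in edgeR). With experiment as the only term and a column left out, it passed without sgNT of experiment 1 (0.32) and without sgElovl1 of experiment 2 (0.38), and was at -0.08 without sgNT of experiment 2. The difference of Vps13d from its paralogs was not tested.

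Osbp and Osbpl8 were lower in experiment 2, at -0.21 (SE 0.07, adjusted p = 0.00548 in edgeR) and -0.26 (SE 0.07, adjusted p = 0.000546 in edgeR). Osbp was at 60.1 and 57.6 CPM in experiment 1 and at 51.2 and 50.2 CPM in experiment 2, and Osbpl8 was at 57.9 and 58.3 CPM in experiment 1 and at 49.1 and 47.7 CPM in experiment 2. These are the smallest of the 6 called differences. With 1 column left out and experiment as the only term, Osbp passed the threshold only without sgElovl1 of experiment 1, and Osbpl8 did not pass without either column of experiment 2, at -0.27 and -0.25 (adjusted p = 0.0631 and 0.0954 in edgeR). In DESeq2 (Wald test) Osbp did not pass, at -0.20 (adjusted p = 0.0856), nor with upper-quartile factors in edgeR, at -0.13 (adjusted p = 0.0975). Esyt1 did not pass, at 0.09 (SE 0.07, adjusted p = 0.241 in edgeR), but did with upper-quartile factors, at 0.18, and with genes of at least 5 CPM, at 0.16 (adjusted p = 0.00628 and 0.0342 in edgeR).

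**Figure D4:**
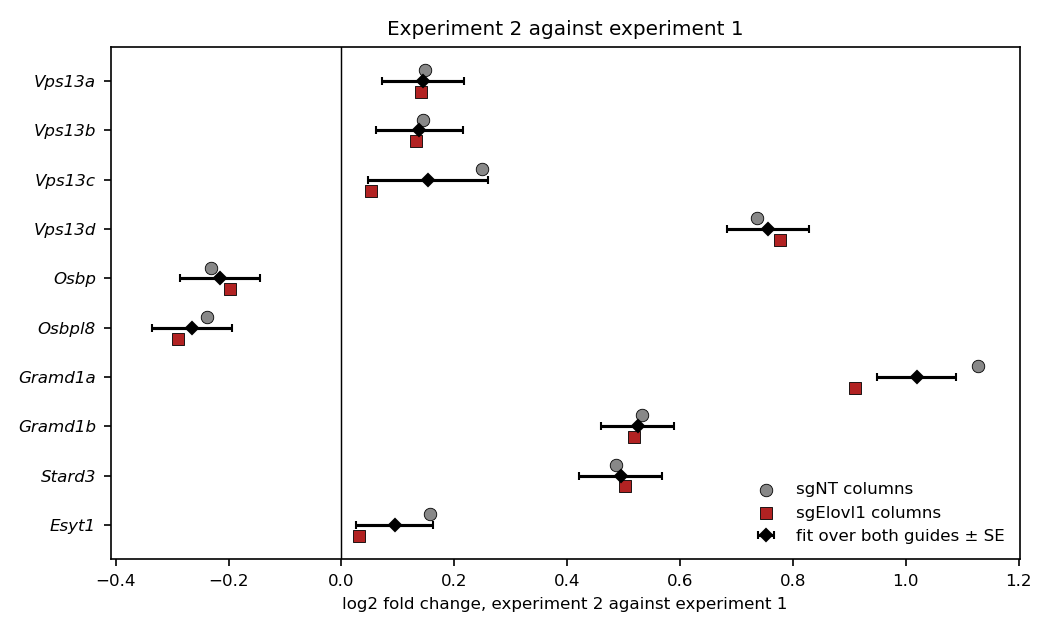
Log2 fold change of experiment 2 against experiment 1 for the 10 genes, with circles for the sgNT columns, squares for the sgElovl1 columns and diamonds with bars for the fit over both guides and its SE. Gramd1a (1.02), Vps13d (0.76), Gramd1b (0.53) and Stard3 (0.49) lie to the right of 0, and Osbp (-0.21) and Osbpl8 (-0.26) to the left.

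Levels of different genes were compared per kilobase of the longest transcript of each gene. Gramd1a had the highest level, at 118 to 275 CPM per kilobase over the 4 columns, followed by Esyt1, at 170 to 192. These ranges overlap, so the order of the 2 genes depends on the column, and Esyt1 was above Gramd1a in both columns of experiment 1 and below it in both columns of experiment 2. By mean CPM, Gramd1a ranked at percentile 99.1 and Esyt1 at percentile 99.0 of the tested genes. Stard3 (16.2 to 23.6), Gramd1b (13.4 to 19.7) and Osbp (11.2 to 13.4 CPM per kilobase) came next, with ranges that overlap or meet. Osbpl8 (6.62 to 8.10), Vps13a (4.17 to 4.87), Vps13d (2.14 to 3.86), Vps13b (2.26 to 2.73) and Vps13c (1.11 to 1.62) were lowest, and of these neighbours only Vps13d and Vps13b overlapped. All 4 bridge-like Vps13 genes thus lay below all 6 shuttle and tether genes per kilobase. The count over whole genes takes in intron reads, and with the gene span as the length Esyt1 was above Gramd1a, Osbp above Stard3 and Vps13c above Vps13b, while all 4 Vps13 genes were still the lowest.

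Within the families, the level per kilobase was unevenly divided. Vps13a held 37.2% to 43.1% of the summed level of the Vps13 genes over the 4 columns, Vps13b 20.8% to 23.5%, Vps13d 22% to 30.8% and Vps13c 9.7% to 12.9%. The share of Vps13c was 12.9% in sgNT and 11.5% in sgElovl1 in experiment 1, and 12.3% and 9.7% in experiment 2. Gramd1a held 89.8% to 93.3% of the level of the Gramd1 pair, and Osbp 61.3% to 62.8% of that of Osbp and Osbpl8. These shares depend on the length used: with the gene span, and over the mean of the columns, Vps13a held 44.2%, Vps13d 32%, Vps13c 14.6% and Vps13b 9.16%, so that Vps13b and not Vps13c had the smallest share, and Osbp held 82.9% and Gramd1a 98.3%.

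**Figure D5:**
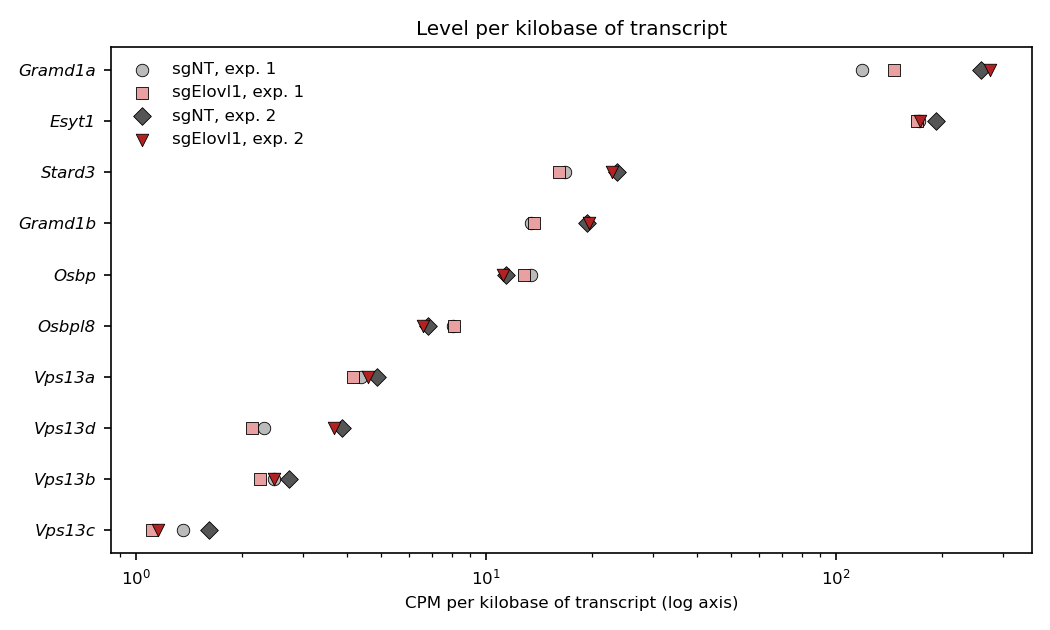
CPM per kilobase of the longest transcript for the 10 genes on a log axis, with 1 marker for each of the 4 columns. Grey marks sgNT, red sgElovl1, pale shades experiment 1 and dark shades experiment 2. Gramd1a and Esyt1 lie above 100 and the 4 Vps13 genes below 5 CPM per kilobase.

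Of 66 other genes of lipid transfer at contact sites, in 7 lists, 61 were tested. None of the 61 passed the threshold between the guides in edgeR or in the Wald test of DESeq2. Of all 16006 tested genes, only 1.2% passed in edgeR and 26 genes in the Wald test, so nothing is read from this about the lists. An unadjusted p below 0.05 was found for 7 list genes in edgeR and 3 in the Wald test, and the share of all genes with such a p was not counted. The median log2 fold change of the 61 was 0.00. The gene with the smallest p of each list is named here. Among the other bridge-like proteins it was Uhrf1bp1 (Bltp3a), at -0.25 (SE 0.13, adjusted p = 0.477 in edgeR). Among the partners and scramblases of VPS13 it was Fam177a, at -2.06 (SE 0.86, adjusted p = 0.32 in edgeR) and a mean of only 0.299 CPM. Among the other oxysterol-binding genes it was Osbpl5, which encodes the phosphatidylserine exchanger ORP5, a partner of ORP8, at 0.17 (SE 0.07, adjusted p = 0.224 in edgeR). Among the other GRAMD and START genes it was the sterol carrier gene Stard4, at -0.13 (SE 0.07, adjusted p = 0.457 in edgeR).

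Pdzd8, which encodes a tether with a lipid-binding SMP domain at contacts of the endoplasmic reticulum with late endosomes, had the smallest p of all 61, at -0.25 (SE 0.08, adjusted p = 0.0777 in edgeR). It was lower with sgElovl1 in both experiments, at -0.29 and -0.22. Among the genes of phosphoinositide and phosphatidylserine supply it was the kinase gene Pi4k2b, at 0.23 (SE 0.11, adjusted p = 0.431 in edgeR), and among those of lysosomal sterol exit it was the acid lipase gene Lipa, at -0.14 (SE 0.08, adjusted p = 0.568 in edgeR). None of the 3 sterol exit genes passed, and Npc1 and Npc2, which hand cholesterol out of the lysosome, were at -0.05 and 0.00.

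Between the experiments 18 of the 61 list genes were higher and 27 lower in experiment 2 in edgeR. Of all tested genes, 26.4% were higher and 29.2% lower, and the counts of this paragraph stand beside those shares. The median log2 fold change of the 61 was -0.13, against 0.15 for the 10 members and 0.00 for all tested genes. The partners and scramblases of VPS13 had 1 gene higher and 6 lower of 12, and the other GRAMD and START genes 6 higher and 4 lower of 12. All 5 tested GRAMD genes, with the members Gramd1a and Gramd1b among them, were higher in experiment 2, at 0.53 to 1.10 (a grouping made after the values were seen). They include Gramd3 (Gramd2b), at 1.10 (SE 0.06), Gramd4, at 0.82 (SE 0.07), and Gramd1c, at 0.96 (SE 0.27) and a mean of 2.78 CPM.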

How the data were processed

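Strand-specific mRNA libraries were sequenced as read pairs. Per the labels and the study's methods, the authors aligned reads with STAR 2.7.10b to GRCm39, counted them with featureCounts 2.0.1 over whole genes on the reverse strand, summed the replicate mice of an experiment and deposited raw counts per gene in 4 columns. From these counts, edgeR 4.0.16 (R 4.3.3) was run with TMM scaling, filterByExpr (16006 of 56805 genes kept), terms for experiment and guide, glmQLFTest and Benjamini-Hochberg adjustment over all tested genes, with a threshold of 0.05. CPM use the TMM-scaled library sizes. Fold changes of 1 experiment are log2 ratios of CPM with 0.5 added to each count. With 1 residual degree of freedom, the SE rests on a dispersion estimated across genes, so p-values measure the spread between columns and not between mice. The code was tested on simulated data. Lengths and sequences come from GENCODE vM21 on GRCm38, matched by symbol for 94.1% of tested genes. Chromosomes, gene spans and same-strand overlaps rest on its gene positions, while the reads were counted on GRCm39. No coordinates are printed. The members and lists were chosen with earlier results of these data known. Named genes were all members, Elovl1, per list up to 2 genes past the threshold or else the gene with the smallest p, and the 5 profiles nearest to Vps13c. Alternatives were other scalings and filters, DESeq2 1.42.0 and limma-voom 3.58.1, other terms, corrections for length and for the experiment difference, and each column left out.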

Additional observations from a re-analysis of the deposited data

Results flagged for a closer look

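Osbpl8 had log2 fold changes of opposite sign in the experiments, 0.0108 in experiment 1 and -0.0410 in experiment 2, each from 1 column a guide. This difference between the experiments was not tested, and both values are smaller than the SE of the fit over both experiments, 0.07.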

How the results depend on the processing

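The log2 fold change of Vps13c between the guides was below 0 under all 11 other settings, at -0.40 to -0.35, and with each column left out and guide as the only term, at -0.51 to -0.24. The count of members past the threshold in that contrast, 1 in the reported fit, was 2 with upper-quartile factors, where Gramd1a joined Vps13c. It was 0 without a filter, with genes of at least 5 CPM, without the experiment term, with the length trend removed, in DESeq2 by either test, where Vps13c had no adjusted p, and with any 1 column left out (0 to 0), where those fits called 0 to 6 genes in all. Over all tested genes, the guide contrast called 192 in the reported fit and 239 with upper-quartile factors. It called 94 of 24673 without a filter and 35 of 9757 with genes of at least 5 CPM. With the length trend removed it called 194, in either DESeq2 test 26 and without the experiment term 0. Members higher in experiment 2 were 8 with upper-quartile factors and 7 with genes of at least 5 CPM, against 4. In either direction, the experiment contrast called 8865 and 7072 genes in those fits, against 8896. Members lower in experiment 2 were 1 with upper-quartile factors and in both DESeq2 tests, against 2, and 0 to 2 with 1 column left out. The cause of these changes was not tested. Over all genes, the median log2 fold change between the experiments was -0.002 in the reported fit. It was 0.08 with upper-quartile factors and -0.008 with genes of at least 5 CPM. The experiment difference of Vps13c ran from -0.0834 (without sgNT of experiment 2) to 0.38 with 1 column left out. Without the experiment term a left-out column mixes guide and experiment, and the guide difference of Gramd1a then ran from -0.35 to 0.86. The log2 ratio of Gramd1a over Esyt1 per kilobase was 0.17 with the transcript and -0.61 with the gene span as the length. No list gene passed between the guides with DESeq2 size factors, without a filter or in DESeq2, where 176, 94 and 26 genes passed in all. No paired analysis was possible because each column sums both replicate mice, so single mice could not be paired. The experiment term of the reported fit does set the guides against each other within an experiment.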
